A study of Homo sapiens with 36 samples.

Results

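The constant genes of the T-cell receptor, TRAC, TRBC1, TRBC2, TRDC, TRGC1 and TRGC2, were followed in MOLM-13 and MONO-MAC-6, a pair of human acute myeloid leukaemia (AML) cell lines, as 6 of the 35460 genes summed from the deposited transcript values. The members were chosen by name, after measured values of these data had shown that TRAC was lower with A9 than with DMSO in each line. Their A9 values are therefore a description without a test, while the comparison of the DMSO-treated lines with each other did not enter that choice. Cells labelled wild type were given the solvent DMSO or A9, a PROTAC, which is a molecule that brings its target proteins to the degradation machinery. According to the series' title it degrades IKK1 together with NR4A1, whereas the design text pairs NR4A1 with IKK2. Exposure lasted 72 h, with A9 at 0.125 µM for MOLM-13 cells but 0.25 µM for MONO-MAC-6 cells, so line and dose differ together. Each is 1 established line and not a set of donors. The 36 libraries formed 4 groups of 9, and libraries sharing the first of their 2 label numbers were averaged, giving 3 samples per group. Nothing in the labels says that samples came from separate cultures, so p-values measure only the spread between these samples, which may be technical.

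T-cell receptors are pairs of chains, alpha with beta or gamma with delta, in which a variable part joined from V, D and J segments is spliced to a constant part that anchors the chain in the membrane. TRAC encodes the alpha constant part, TRBC1 and TRBC2 the beta, TRGC1 and TRGC2 the gamma and TRDC the delta. Constant exons can also be transcribed from an unrearranged locus, which gives RNA with no complete receptor chain. A receptor reaches the cell surface only together with the CD3 proteins and the zeta chain CD247, and joining of the segments in lymphocytes needs the recombinase genes RAG1 and RAG2. Mature myeloid cells are not known for this receptor.

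In the GENCODE 29 annotation of GRCh38, TRAC (ENSG00000277734) lies on the plus strand of chromosome 14 from 22547506 to 22552154. TRDC (ENSG00000211829) lies upstream of it, from 22462932 to 22465787 on the same strand, inside the combined alpha and delta locus. TRGC1 (ENSG00000211689) spans 38257879 to 38265678 and TRGC2 (ENSG00000227191) spans 38239580 to 38249572, both on the minus strand of chromosome 7. TRBC1 (ENSG00000211751, 142791694 to 142793368) and TRBC2 (ENSG00000211772, 142801041 to 142802748) lie on the plus strand of chromosome 7. TRGC1 has 3 exons and each other member 4, and each was represented by 1 transcript, so its gene value is that transcript's value. Over the whole transcripts, TRGC2 shares 614 of its 983 words of 31 bases with TRGC1 (62.5%), which are 22.7% of the 2700 words of the longer TRGC1 transcript. TRBC1 shares 255 of 730 words with TRBC2 (34.9%). TRAC and TRDC share 0 words with any other member. Reads from the shared stretches can be assigned to either gene, so the split of signal between TRGC1 and TRGC2 is uncertain, while that between TRAC and the other members does not have this ambiguity.

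The values are TPM, abundances that account for transcript length and add up to the same sum in each library, so levels can be compared between genes. TPM hold no read counts, and the depth behind each value is unknown. Transcripts listed above 0 numbered 86918 to 105082 per library, and mitochondrial genes held 4.85% to 9.47% of TPM. DMSO sample 1 of MONO-MAC-6 stood apart: its median absolute log2 distance from the mean of the other samples of its group was 0.41, against 0.20 and 0.24 for samples 2 and 3 and 0.055 to 0.26 in the other groups. Values of the members, and calls on the gene lists that changed without it, are given with and without it. The myeloid label was matched by the markers: of 12 myeloid markers, 10 or 11 averaged 1 TPM or more in each group, with summed levels of 855 to 9559 TPM per sample. Of 15 T-cell markers, CD2 and CD3E were listed at 0 in every library, and 2 or 3 reached a mean of 1 TPM in each group. Summed T-cell markers were 39.4 to 53.7 TPM in MOLM-13 with DMSO and 33.3 to 54.1 TPM with A9. In MONO-MAC-6 the sums were 6.09 to 10.0 TPM with DMSO and 9.49 to 10.5 TPM with A9. CD4, which monocytes also make, was the largest part in MOLM-13, and CD8A in MONO-MAC-6. Without that one gene the sums were at most 5.88 TPM in MOLM-13 and 6.74 TPM in MONO-MAC-6.

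TRAC, the alpha chain constant gene, was the most abundant member in MOLM-13 and was lower with A9 in both lines. Its 3 DMSO samples in MOLM-13 held 3.54, 3.95 and 4.33 TPM, and its A9 samples 1.25, 0.840 and 0.934 TPM. The A9 samples were all below the DMSO samples, and so were the single libraries, at 0.474 to 1.46 TPM against 2.11 to 4.62 TPM. Mean TRAC was 3.94 ± 0.391 TPM with DMSO and 1.01 ± 0.215 TPM with A9 (SD, n = 3), 3.91-fold lower. On the log2(TPM + 1) scale, where the added 1 shrinks changes of low genes, the TRAC difference was -1.30 (SE 0.11). In bulk RNA, fewer cells that carry a transcript and less of it per cell cannot be told apart.

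In MONO-MAC-6, TRAC was 4.94, 6.89 and 6.80 TPM in the DMSO samples and 1.53, 1.12 and 0.917 TPM in the A9 samples. The groups again did not overlap, and the lowest DMSO value came from sample 1, which stood apart. Single libraries ranged from 4.29 to 8.20 TPM with DMSO and from 0.822 to 1.61 TPM with A9. Mean TRAC was 6.21 ± 1.10 TPM with DMSO and 1.19 ± 0.315 TPM with A9 (SD, n = 3), 5.22-fold lower. The log2 difference was -1.72 (SE 0.18), or -1.85 without DMSO sample 1. The order of the TRAC levels was MONO-MAC-6 with DMSO, MOLM-13 with DMSO and then the A9 groups, whose samples overlapped each other at about 1 TPM.

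TRDC, the delta chain constant gene, was near the lower end of what the tables list. In MOLM-13 it was 0.0659, 0.0546 and 0.0378 TPM with DMSO and 0.259, 0.0699 and 0.172 TPM with A9. In MONO-MAC-6 it was 0.341, 0.256 and 0.382 TPM with DMSO and 0.0334, 0 and 0.107 TPM with A9. The sample means were thus all higher with A9 in MOLM-13 and all lower with A9 in MONO-MAC-6, with log2 differences of 0.15 (SE 0.069) and -0.34 (SE 0.059). The single libraries overlapped in each line, and TRDC was listed at 0 in 5 DMSO and 2 A9 libraries of MOLM-13 and in 2 DMSO and 6 A9 libraries of MONO-MAC-6.

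TRGC1 and TRGC2, the gamma chain constant genes, were higher with A9 in the samples of both lines, from very different starting levels. In MONO-MAC-6, TRGC2 was the most abundant member, at 16.1, 17.7 and 16.7 TPM with DMSO and 23.2, 23.8 and 25.3 TPM with A9. The groups did not overlap, nor did the libraries, at 14.6 to 20.2 TPM and 22.8 to 26.8 TPM. Mean TRGC2 was 16.8 ± 0.850 TPM with DMSO and 24.1 ± 1.05 TPM with A9 (SD, n = 3), 1.43-fold higher. The log2 difference of 0.49 (SE 0.052) stood beside a median over all tested genes of 0.16 in this line. With TPM rescaled by median ratios, which brought that median to -0.0092, the TRGC2 difference was 0.31. Without DMSO sample 1 it was 0.46, and the median over all genes was 0.027.

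TRGC1 in MONO-MAC-6 was 0.750, 1.40 and 1.21 TPM with DMSO and 2.42, 1.85 and 2.32 TPM with A9. Every A9 library was above every DMSO library. The mean was 1.12 ± 0.336 TPM with DMSO and 2.20 ± 0.303 TPM with A9 (SD, n = 3), 1.96-fold higher, a log2 difference of 0.60 (SE 0.16), or 0.49 with rescaled TPM and 0.47 without DMSO sample 1. Because TRGC1 shares sequence with the far more abundant TRGC2, its own level is uncertain.

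In MOLM-13 the gamma genes were low. TRGC1 was 0.0617, 0.0849 and 0.0724 TPM with DMSO and 0.287, 0.321 and 0.260 TPM with A9, and its libraries did not overlap. TRGC2 was 0.0405, 0.0672 and 0.0703 TPM with DMSO and 0.298, 0.322 and 0.196 TPM with A9. Its libraries did overlap, with 4 DMSO libraries and 1 A9 library listed at 0. Both log2 differences were 0.26 (SE 0.022 for TRGC1 and 0.046 for TRGC2), and all 4 group means were under 1 TPM.

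TRBC1 and TRBC2, the beta chain constant genes, were listed at 0 in all 36 libraries. An exact 0 in TPM can be a failed estimate, for example where identical copies of a gene compete for reads. Transcripts that did not match the annotation were not analysed here.

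**Figure D1:**
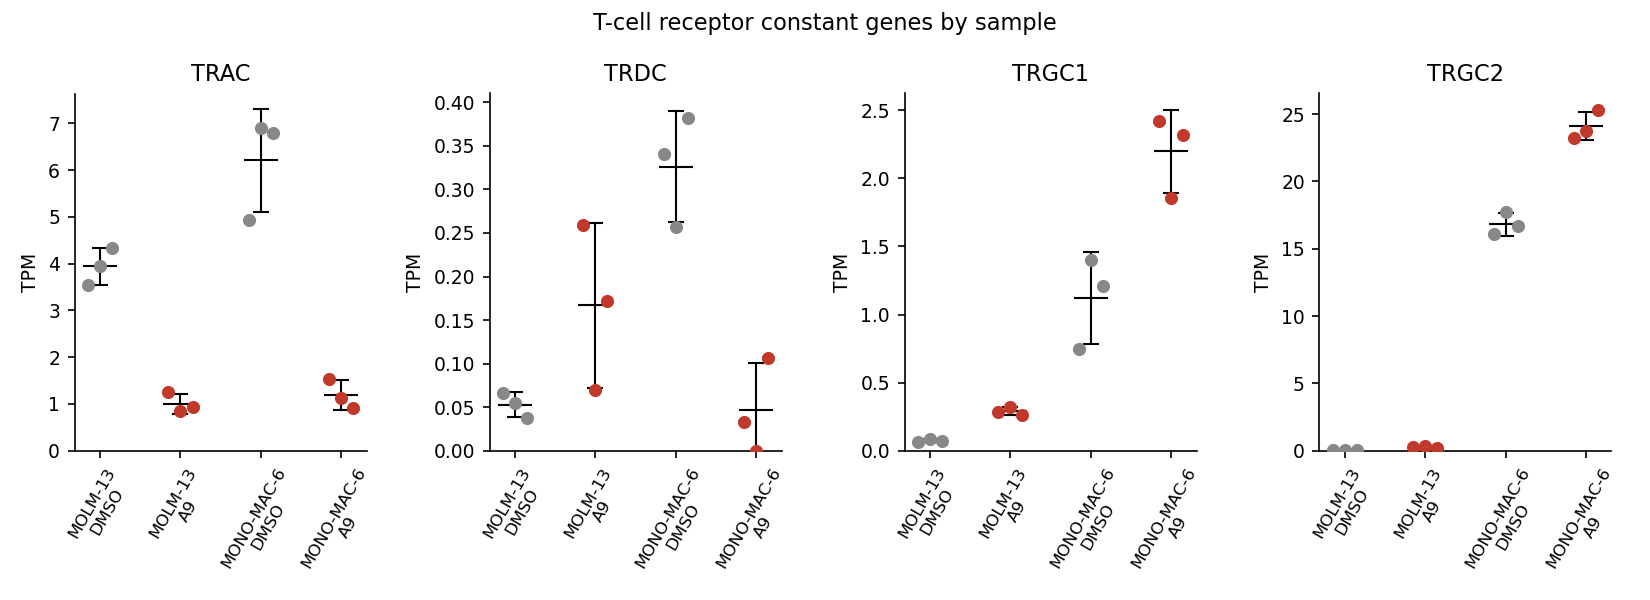
TPM of TRAC, TRDC, TRGC1 and TRGC2 in each of the 4 groups (a separate linear axis for each gene). Points are the 3 samples of a group, long bars the mean and short bars ± 1 SD. TRAC sat at 3.54 to 6.89 TPM in the DMSO samples and at 0.840 to 1.53 TPM in the A9 samples, while TRGC2 was at 16.1 TPM or above in MONO-MAC-6 and at most 0.322 TPM in MOLM-13.

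Counted over all 6 members, the A9 and DMSO samples did not overlap for 4 in each line. In MOLM-13, 3 were higher and 1 lower with A9, and samples failed to overlap for 11.4% of the 24552 genes above 0 in a library. In MONO-MAC-6, 2 were higher and 2 lower, against 25.3% of 25812 genes. Because the members were chosen on this contrast, nothing is read from these counts. A group mean of 1 TPM, the level required for testing, was reached by 1 of 6 members in MOLM-13 (TRAC) and by 3 in MONO-MAC-6 (TRAC, TRGC1 and TRGC2). Of the 11057 genes tested in both lines, only TRAC and HSH2D, which encodes an SH2 domain adaptor of blood cells, had log2 differences under -1 in each, with -1.08 and -1.30 for HSH2D in MOLM-13 and MONO-MAC-6.

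**Figure D2:**
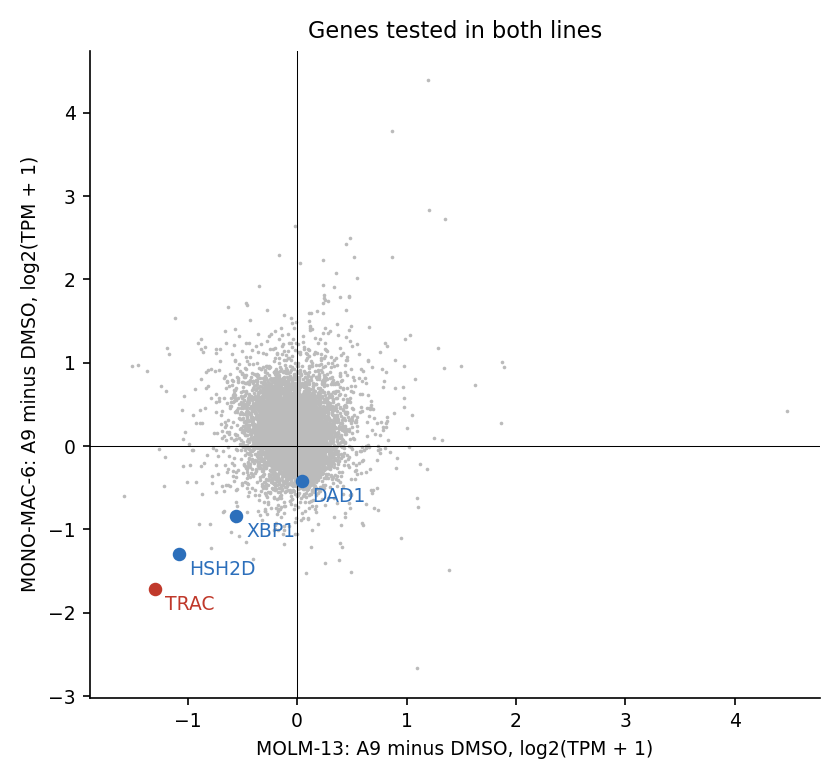
Log2(TPM + 1) difference, A9 minus DMSO, in MOLM-13 (x axis) and MONO-MAC-6 (y axis), each point 1 of 11057 genes tested in both lines. TRAC lies at -1.30 and -1.72 and HSH2D at -1.08 and -1.30, beyond XBP1 at -0.56 and -0.84, whereas DAD1, the gene next to TRAC, lies at 0.041 and -0.42.

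The DMSO samples of the lines listed the same 4 members above 0, at different levels. TRGC2 was higher in MONO-MAC-6, at 16.8 ± 0.850 TPM against 0.0593 ± 0.0164 TPM in MOLM-13 (SD, n = 3), a log2 difference of 4.07 (SE 0.11). TRGC1 was higher by 0.97 (SE 0.14), or 15.4-fold in TPM. Both gamma genes reached 1 TPM only in MONO-MAC-6, so the filter on low values let them in through the group where they are high. Fitted by limma without that filter, over all genes above 0 in a library, they had adjusted p = 1.22e-05 for TRGC2 and 0.00360 for TRGC1. TRAC was higher by 0.54 (SE 0.16, limma adjusted p = 0.0354), or 1.58-fold in TPM, and its samples did not overlap. TRDC was under the level required for testing, at 0.0528 TPM in MOLM-13 and 0.326 TPM in MONO-MAC-6. TRAC was thus the 1 member that reached 1 TPM in both lines and was called, in a comparison in which 48.8% of 12920 genes were called and 62.2% of the calls were higher in MONO-MAC-6 (47.3% with rescaled TPM). The median log2 difference of all tested genes was 0.12, and -0.078 after rescaling. The TRAC call was lost without the filter (limma adjusted p = 0.0558), with rescaled TPM (0.36, adjusted p = 0.0662) and in 5 of the 6 fits that left out 1 sample (adjusted p up to 0.116), whereas without MONO-MAC-6 DMSO sample 1 it was 0.67 (adjusted p = 0.00467). Each line has its own deposited table, so line and table cannot be told apart, and these DMSO samples are also the controls of the A9 comparisons.

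Most variable segments that would have to be joined to these constant genes were listed at 0. Of 226 V, D and J segments of the T-cell receptor loci in the tables, 170 were listed at 0 in every library and 16 averaged 1 TPM or more in some group. D segments (8 to 13 bases) and J segments (46 to 69 bases) are shorter than the 150-base reads, so their TPM, zeros included, are poorly determined, and a 0 does not show that a segment is absent. For the alpha chain, 47 of 54 V segments were at 0 throughout. The summed TRAV level was 0.133 TPM with DMSO and 0 TPM with A9 in MOLM-13, and 0.586 and 0.312 TPM in MONO-MAC-6, below the TRAC level of the same groups. Of 60 alpha J segments 43 were at 0 throughout. Summed TRAJ was 0.224 TPM with DMSO and 0.422 TPM with A9 in MOLM-13, but 3.79 TPM with DMSO and 1.32 TPM with A9 in MONO-MAC-6, where it was lower with A9 as TRAC was. For the beta chain, all 14 J segments and 57 of 68 V segments were at 0. Summed TRBV was 1.35 TPM with DMSO and 2.89 TPM with A9 in MOLM-13, and 0.0821 and 0.316 TPM in MONO-MAC-6. For the delta chain, 1 of 3 V segments, 3 of 4 J segments and all 3 D segments were at 0 throughout. Summed TRDV was 0.0501 TPM with DMSO and 0 TPM with A9 in MOLM-13, and 0.281 and 0.140 TPM in MONO-MAC-6. Summed TRDJ was 0 TPM in both MOLM-13 groups, and 1.17 TPM with DMSO and 0 TPM with A9 in MONO-MAC-6. At the gamma locus, 1 of 14 V segments was at 0 throughout, and of its 5 J segments none. Summed TRGV was 5.58 TPM in MOLM-13 with DMSO and 7.30 TPM with A9, and 19.0 and 24.2 TPM in MONO-MAC-6. Summed TRGJ was 1.19 and 2.01 TPM in MOLM-13, and 46.4 and 106 TPM in MONO-MAC-6, the same direction as TRGC1 and TRGC2. Most of it came from TRGJP2, with a mean of 25.8 TPM with DMSO (samples 19.4 to 31.9) and 68.8 TPM with A9 (58.8 to 75.9), and from TRGJP1, with means of 18.9 and 34.3 TPM. Each of these J segments is 60 bases long. The segments were looked at after the members' values were seen, and none was tested.

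The partners that a receptor needs at the surface were low in the same samples. CD3E was listed at 0 in every library. Its sister CD3 genes CD3D and CD3G were at most 0.417 and 0.161 TPM in any sample, and the zeta chain CD247 at most 0.662 TPM. PTCRA, which encodes the surrogate alpha chain of immature T cells, was 0.246 to 0.317 TPM in MOLM-13 with DMSO and 0.910 to 1.32 TPM in MONO-MAC-6 with DMSO. The proximal kinases LCK and ZAP70 were at most 0.170 and 0.0702 TPM. The recombination genes RAG1 and RAG2 were at most 0.210 and 0.151 TPM, and DNTT, the terminal transferase that adds bases at the joints, at most 0.0197 TPM, so 0 of these 3 were tested.

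**Figure D3:**
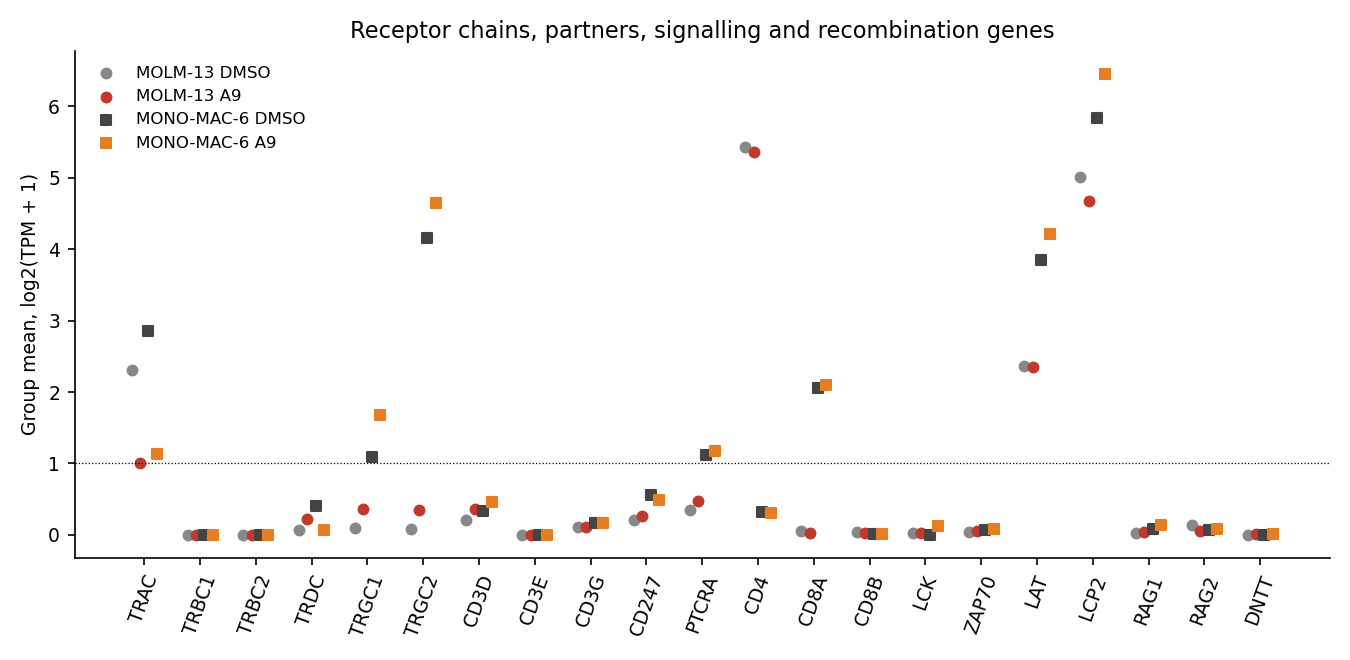
Group means of log2(TPM + 1) for the 6 constant genes, receptor partners, signalling and recombination genes. Circles are MOLM-13 and squares MONO-MAC-6, and the dotted line marks 1 TPM. TRAC, TRGC1, TRGC2, PTCRA, CD4, CD8A, LAT and LCP2 rise above the line in at least 1 group. TRBC1, TRBC2, TRDC, CD3D, CD3E, CD3G, CD247, CD8B, LCK, ZAP70, RAG1, RAG2 and DNTT stay under it.

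Across 33 genes of the receptor complex and its signalling, 0 of 8 tested were called in MOLM-13 with A9 (limma, adjusted p under 0.05; 1 at an unadjusted p under 0.05), where 0.121% of 11596 genes were called. Their median log2 difference was -0.24, against -0.046 over all genes. In MONO-MAC-6, 0 of 7 tested were called (limma; 3 at an unadjusted p under 0.05), where 3.36% of 12869 genes were called, and their median was 0.069 against 0.16. That count rested on DMSO sample 1: without it, 4 of 7 were called, with CD6 (0.54), LAT (0.37) and LCP2 (0.35) higher and FYN (-0.59) lower, among 3204 genes called in all. FYN, a Src family kinase, was also called lower with rescaled TPM (-0.66, limma adjusted p = 0.0347). Between the DMSO groups, 8 of 10 were called, against the 48.8% of all genes, and PTCRA, CD8A, CD4, PRKCQ and NFATC2 reached 1 TPM in 1 line only. Without MONO-MAC-6 DMSO sample 1, LCP2 was also called higher. PTCRA (0.76), the coreceptor CD8A (1.97), FYN (2.34) and the adaptor LAT (1.48) were higher in MONO-MAC-6. CD4 (-5.11), the kinase PRKCQ (-1.48) and the transcription factors NFATC1 (-0.97) and NFATC2 (-1.29) were lower, with limma adjusted p from 3.78e-06 to 0.00549 over the 8 genes.

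T-lineage transcription factors, 26 genes, gave 0 calls among 13 tested in MOLM-13 (limma; 1 at an unadjusted p under 0.05) and among 12 in MONO-MAC-6 (0 at an unadjusted p under 0.05), and without DMSO sample 1 LMO2 and TCF3 were called lower there. Their medians were -0.14 in the first line and 0.21 in the second, against -0.046 and 0.16 over all genes, of which 0.121% and 3.36% were called. Between the DMSO groups, ID2 (1.42) and LYL1 (0.75) were higher in MONO-MAC-6 and HES1 (-1.60) and RUNX3 (-0.84) lower, among 13 tested, where 48.8% of all tested genes were called. HES1 reached 1 TPM only in MOLM-13. These counts depended on the setting. With rescaled TPM, 2 were higher (ID2 and RUNX1) and 6 lower (CBFB, ETS1, HES1, IKZF1, RUNX3 and TCF3), and LYL1 was not called (0.54, limma adjusted p = 0.0615). Leaving out DMSO sample 1 of MONO-MAC-6, 7 were higher (ID2, LMO2, LYL1, MYB, RUNX1, TCF12 and ZBTB7B) and 2 lower.

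A lymphoid gene outside the receptor loci that fell with A9 was IGLL1, which encodes part of the surrogate light chain of B-cell precursors and was the 1 tested gene of 16 on the immunoglobulin list. It was 4.77, 4.73 and 5.02 TPM in MONO-MAC-6 with DMSO and 0.762, 0.410 and 0.600 TPM with A9, with no overlap. The log2 difference was -1.88 (limma adjusted p = 0.00169), where 3.36% of all tested genes were called, and IGLL1 was called in all 11 alternatives. IGLL1 averaged 1 TPM or more only in MONO-MAC-6 with DMSO, so the filter let it in through the group where it is high. The alternatives include a fit without that filter, and one with each library as its own sample, which takes repeats of 3 samples as separate. In MOLM-13, IGLL1 was at most 0.340 TPM and not tested with A9. Between the DMSO groups it was 2.33 higher in MONO-MAC-6 (limma adjusted p = 1.36e-05), where 48.8% of all tested genes were called.

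Of 17 genes marking natural killer cells, a lymphoid type that can carry gamma or delta transcripts, 0 of 6 tested were called in MOLM-13 (limma; 4 at an unadjusted p under 0.05). GZMA, a granule protease, fell in MONO-MAC-6 by 1.61 (limma adjusted p = 0.00503) and CST7, a cystatin of granules, fell by 0.81 (limma adjusted p = 0.00463). TYROBP, a signalling adaptor that myeloid cells also make, rose by 2.24 (limma adjusted p = 0.00207). These were 1 higher and 2 lower of 6 tested in MONO-MAC-6, where 3.36% of all tested genes were called, against 0.121% in MOLM-13. Without DMSO sample 1, NKG7 was also called lower, among 3204 of 12924 genes called. The GZMA call was lost without A9 sample 2 (adjusted p = 0.0503), and the CST7 call without A9 sample 2 or 3 (adjusted p up to 0.0562). GZMA averaged 1 TPM or more only in MONO-MAC-6 with DMSO, the group that let it through the filter, and it stayed called without the filter. The summed level of the 8 fixed killer-cell markers was 101 to 113 TPM with DMSO and 90.1 to 93.5 TPM with A9 in MONO-MAC-6, and 65.2 to 95.7 and 83.5 to 105 TPM in MOLM-13, nearly all from NKG7 in MONO-MAC-6. The median of the list was 0.017 in MOLM-13, whereas MONO-MAC-6 had -0.12. In a comparison that called 48.8% of all tested genes, 7 genes of this list were tested between the DMSO groups, and 4 were higher in MONO-MAC-6 and 3 lower. Of these, GZMA, GZMH and NCAM1 reached 1 TPM in 1 line only. Their part in the values of the constant genes was not tested.

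Among 19 further T-cell genes, 0 were called with A9 in either line (limma; 1 of 3 tested had an unadjusted p under 0.05 in each). CD27, a costimulatory receptor, was called higher in MONO-MAC-6 without DMSO sample 1, and also with rescaled TPM. In DMSO, of 4 T-cell genes tested, CD27 was higher in MONO-MAC-6 than in MOLM-13, and the chemokine receptor CXCR3 was lower, where 48.8% of all tested genes were called. Both reached 1 TPM in 1 line only. Their part in the values of the constant genes was not tested.

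Of 28 myeloid genes, 3 of 22 tested rose in MOLM-13, the calprotectin genes S100A9 (1.89) and S100A8 (1.87) and the lysozyme gene LYZ (1.29), and 0 fell. Of all tested genes, 0.121% were called in that line. In MONO-MAC-6, 7 of 24 rose and 0 fell, among them TYROBP (2.24), the endotoxin coreceptor CD14 (1.77), the lysosomal CD68 (1.72) and LYZ (1.17). There 3.36% of all tested genes were called, and 74.6% of those calls were higher. With rescaled TPM 6 rose in MONO-MAC-6: S100A8, S100A9 and SPI1 lost the call, and CD36 and CSF3R gained it. The LYZ call in MOLM-13 was lost without A9 sample 1 (limma adjusted p = 0.0661), and the CD68 call without A9 sample 2 or 3 of MONO-MAC-6 (adjusted p up to 0.0504). The median log2 difference of the list was 0.23 in MOLM-13 against -0.046 over all genes, while MONO-MAC-6 had 0.33 against 0.16. Without DMSO sample 1 of MONO-MAC-6, 14 rose and 2 fell, FLT3 and MPO, among 3204 of 12924 genes called. Summed over the 12 fixed markers, MOLM-13 samples held 855 to 921 TPM with DMSO and 1075 to 1220 TPM with A9. The MONO-MAC-6 samples held 4391 to 5291 TPM with DMSO and 9311 to 9559 TPM with A9. Their part in the values of the constant genes was not tested.

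The genes around TRAC were set beside it as a description, because TRAC was itself chosen for its lower level with A9. DAD1, a subunit of oligosaccharyltransferase, has its lower coordinate 17.4 kb from that of TRAC. In MOLM-13 DAD1 was 215, 228 and 227 TPM with DMSO and 230, 224 and 236 TPM with A9. In MONO-MAC-6 DAD1 was 286, 241 and 248 TPM with DMSO and 189, 187 and 199 TPM with A9, all A9 samples lower. Its log2 differences were 0.041 and -0.42, the latter short of the threshold (limma adjusted p = 0.0638) but past it without DMSO sample 1 (-0.35, limma adjusted p = 0.00125). Over the 15 listed neighbours of the alpha and delta locus tested in MOLM-13 the log2 differences ran from -0.30 (LRP10) to 0.42, and 0 were called (limma; 1 at an unadjusted p under 0.05). In that line 0.121% of all tested genes were called. Over the 17 neighbours tested in MONO-MAC-6 the differences ran from -0.59 (SALL2) to 0.60, and 0 were called (limma; 3 at an unadjusted p under 0.05), where 3.36% of all tested genes were called. Without DMSO sample 1, 8 of 17 were called, all lower, where 3204 of 12924 genes were called and 58.4% of those calls were higher. SALL2 alone was called with rescaled TPM. The list did not hold every gene of the region: the cadherin gene CDH24, 499.6 kb from TRAC, was not on it. Its log2 differences were -0.46 in MOLM-13, below the lowest listed value there, and -0.38 in MONO-MAC-6. Each of these A9 differences was smaller in size than the A9 difference of TRAC in the same line, -1.30 and -1.72. TRAC was chosen on these values, and only 2 of 11057 genes were under -1 in both lines, so nothing is read from that order. Between the DMSO groups, 7 of 17 tested neighbours were called higher in MONO-MAC-6 and 2 lower (limma). Of all tested genes, 48.8% were called there. The median of the 17 was 0.60 against 0.12 over all genes. SALL2 and ABHD4 reached 1 TPM in MONO-MAC-6 only. With rescaled TPM 6 were higher and 3 lower, and 10 were higher and 2 lower without MONO-MAC-6 DMSO sample 1. Whether TRAC and its neighbours share a cause was not tested.

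**Figure D4:**
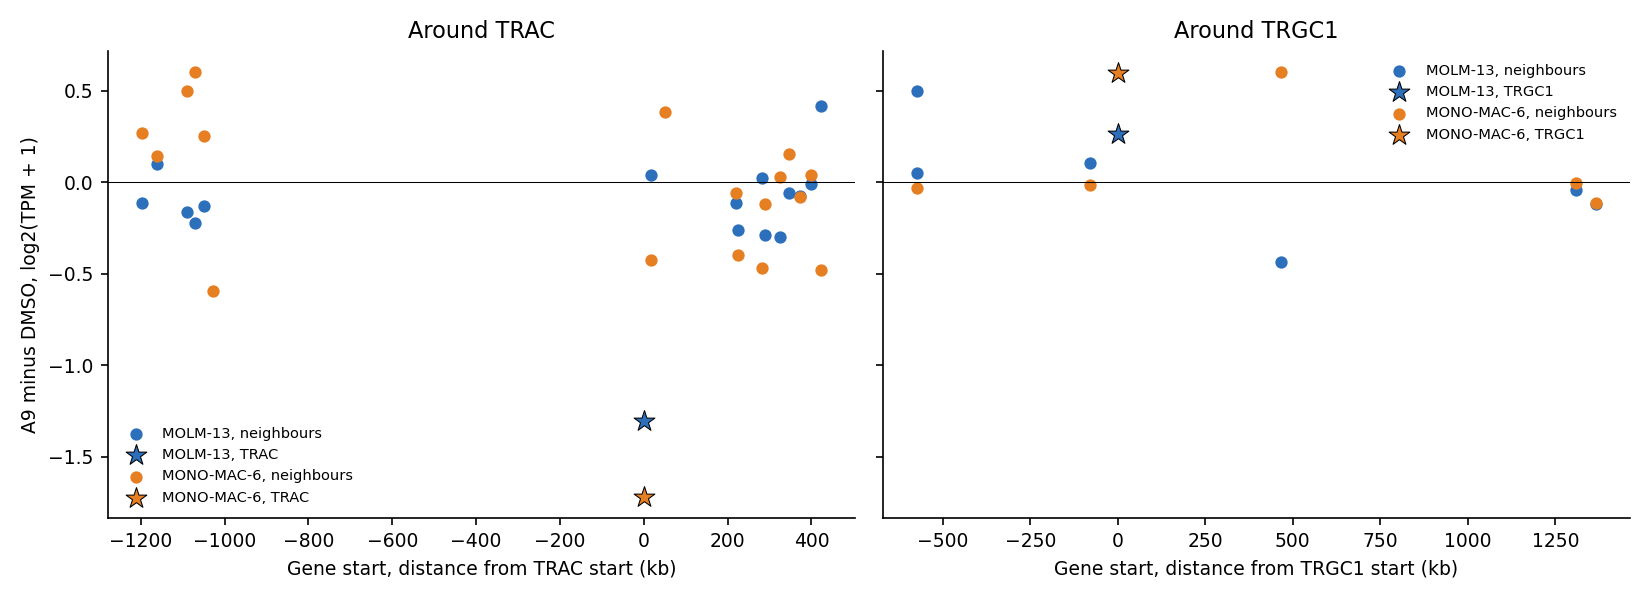
Log2(TPM + 1) difference, A9 minus DMSO, of tested genes around TRAC (left) and TRGC1 (right) against the distance of their start from the start of the constant gene in kb along the chromosome. Start means the lower coordinate of a gene, whatever its strand. Blue is MOLM-13, orange MONO-MAC-6 and stars the constant genes. TRAC, which was chosen for its lower A9 values, lies at -1.30 and -1.72, under all its neighbours on the list, whose lowest value is -0.59. CDH24, which is not on the list, is not drawn. TRGC1 in MONO-MAC-6 (0.60) lies level with VPS41 (0.60).

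Around the gamma locus, 0 of 6 neighbours tested in MOLM-13 (limma; 1 at an unadjusted p under 0.05) and 0 of 5 in MONO-MAC-6 (0 at an unadjusted p under 0.05) were called with A9, with log2 differences of -0.44 to 0.50 and -0.11 to 0.60. Of all tested genes, 0.121% and 3.36% were called in these lines. Without MONO-MAC-6 DMSO sample 1, EPDR1 and RALA were called lower, among 3204 of 12924 genes called. Between the DMSO groups, 4 of 5 were called, against 48.8% of all genes, and were higher in MONO-MAC-6: EPDR1 (0.998), STARD3NL (0.83), YAE1 (1.05) and RALA (1.05). Their limma adjusted p ran from 0.000619 to 0.00990, and the median of the 5 was 0.998 against 0.12 over all genes. Around the beta locus, whose constant genes were listed at 0, 4 neighbours were tested with A9 in each line and 0 were called (limma; 0 and 1 at an unadjusted p under 0.05), and without MONO-MAC-6 DMSO sample 1 ZYX was called higher. Of 4 tested between the DMSO groups, ZYX was called, lower in MONO-MAC-6. With rescaled TPM, AGK was called higher and CASP2 lower as well, and without MONO-MAC-6 DMSO sample 1 AGK was called higher as well.

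The genes whose pattern was most like that of TRAC were ranked by the lower of their Pearson correlations with it in the lines, over 6 samples each and 11056 genes. These correlations include the A9 difference itself, and they are a description. XBP1, a transcription factor of the unfolded protein response and of secretory cells, came highest, with 0.984 for MOLM-13 and 0.985 for MONO-MAC-6. PCBD1, a cofactor-recycling dehydratase, had 0.978 and 0.973, and CLNS1A, a chaperone of spliceosome assembly, 0.971 and 0.988. HSH2D had 0.965 in each line and CDH24, a cadherin, 0.968 and 0.964. Mean XBP1 was 252 TPM with DMSO and 170 TPM with A9 in MOLM-13, and 260 and 145 TPM in MONO-MAC-6. Mean HSH2D was 15.6 and 6.85 TPM in MOLM-13, and 10.7 and 3.82 TPM in MONO-MAC-6. CDH24 lies on the same chromosome as TRAC, from 23047062 to 23057538, with its lower coordinate 499.6 kb from that of TRAC, and its log2 differences were -0.46 and -0.38.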

How the data were processed

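The authors deposited 1 table per line of TPM per Ensembl transcript and library, which the values bear out: each library summed to 1000000. Kallisto, limma and GRCh38 are named in the submitters' processing notes, without roles. Per the labels, poly(A) RNA of RIN 8 or more was read in 150-base pairs. TPM hold no counts, so the depth and its counting error are unknown, and the precision is that of the spread between samples.

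Of 207175 transcripts, 162526 matched GENCODE 29 and held 89.8% to 91.4% of TPM per library. Their TPM were summed to 35460 genes, and 44649 transcripts were left out. The 9 libraries per group were averaged by their first label number to 3 samples. Genes with a group mean of at least 1 TPM were fitted as log2(TPM + 1) with limma 3.58.1 in R 4.3.3 (lmFit, eBayes with trend and robust), and two-sided p-values were adjusted across every tested gene (Benjamini-Hochberg), with a threshold of 0.05. The fit was tested on simulated data. With 3 samples a group, 0.1 is the smallest two-sided p that exact permutation allows. Tables were made with pandas 2.3.3 in Python 3.11.15 and figures with matplotlib 3.10.9.

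The members, the 11 gene lists and the tests were chosen with earlier results of these data known. The text names the members, CD3D, CD3E, CD3G, CD247, PTCRA, LCK, ZAP70, RAG1, RAG2, DNTT and DAD1, up to 5 called genes per list, line and direction, and the 5 genes most like TRAC. HSH2D as a gene under -1 in both lines, the range ends of the neighbours, and genes called only under an alternative were named after their values were seen. Alternatives were a pseudocount of 0.1, no filter, each library as its own sample, a replicate block, median-ratio scaling, the highest transcript alone, and leaving out each sample. The B-cell list and the sequences of the members are not reported here.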

Additional observations from a re-analysis of the deposited data

Results flagged for a closer look

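TRDC was the member for which the lines went opposite ways. Every A9 sample was above every DMSO sample in MOLM-13 (0.15 on the log2(TPM + 1) scale) and below in MONO-MAC-6 (-0.34). The difference between the lines was not tested. All 4 group means were under 1 TPM, and the single libraries of DMSO and A9 overlapped in both lines.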

How the results depend on the processing

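No value of a member changed direction under any alternative run. Of 139 alternative values for the members, 122 stayed within 1 SD or on the same side of the threshold, 9 moved further and 8 lost the call. Some alternatives could not move a member's difference. Each member has 1 transcript, and dropping the filter or adding the replicate block changes p-values but not the difference of group means. The count of values that stayed is therefore not a measure of robustness. With a pseudocount of 0.1 MOLM-13 had a TRAC difference with A9 of -1.88 and MONO-MAC-6 one of -2.30. Leaving out each sample gave -1.39 to -1.24 and -1.85 to -1.63. The TRAC difference between the DMSO groups lost its call without the filter (0.54, limma adjusted p = 0.0558) and with rescaled TPM (0.36), and ran from 0.46 to 0.67 over the fits leaving out a sample, 1 of which passed. TRGC1 passed in the 5 such fits that gave it a value (without MONO-MAC-6 DMSO sample 2 it was under 1 TPM), and TRGC2 in 6 of 6.

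The count of called genes moved more. Between the DMSO groups it was 6305, and 4642 to 8061 with a sample left out. In MOLM-13 it was 14 and became 4 without the filter, 1742 with each library as its own sample, 46 with rescaled TPM and 2 to 8 with a sample left out. In MONO-MAC-6 it was 433 and became 254 without the filter, 5585 with each library as its own sample, and 59 (without A9 sample 2) to 3204 (without DMSO sample 1) with a sample left out. Calls that were higher with A9 made up 74.6% in MONO-MAC-6 and 58.1% with rescaled TPM. The cause of these shifts was not tested, except that libraries taken singly are repeats of 3 samples.

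Whether the replicate numbers pair the samples was not settled, and the main fits took them as unpaired. Same-numbered samples deviated with correlations of -0.077 to 0.69 in MOLM-13, -0.11 to 0.10 in MONO-MAC-6 and -0.67 to 0.065 between the DMSO groups. Not every sample correlated best with its own number: in MOLM-13 the samples numbered 3 had 0.69 and those numbered 1 had 0.39, but DMSO sample 1 had 0.65 with A9 sample 2. With 3 samples a group the deviations depend on each other, so this check cannot exclude pairing. With the number as a replicate block, called genes numbered 87 in MOLM-13, 94 in MONO-MAC-6 and 4106 between the DMSO groups, and the TRAC difference between the DMSO groups was 0.54 (limma adjusted p = 0.103). TPM give no depth, so whether TRBC1 and TRBC2 are absent or under detection is not known. For TRDC, listed above 0 in some libraries of each group and at 0 in others, the distance from detection is not known either.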
